A study of Mus musculus with 77 samples.

Results

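The cells described here are the blastomeres at the beginning and at the end of S phase in 8-cell mouse embryos from somatic cell nuclear transfer (SCNT). In this method a somatic nucleus replaces that of the oocyte. The authors' replication score of each cell, which is the percentage of its called autosomal bins that were already replicated, chose them. Cells under 30% were taken as early S and cells over 70% as late S. The rule gave 6 early-S and 15 late-S cells, that is 21 of the 49 cells at the 8-cell stage and of the 77 cells in all. The other 28 cells at the 8-cell stage lay between the limits and are called mid S.

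A cell copies its genome once per S phase, and it does so from many origins that fire in a reproducible sequence. Neighbouring origins fire at similar times, so that chromosomes are divided into early and late replicating domains. Early domains are in general gene-rich and transcribed, and late domains are gene-poor and lie more often at the nuclear lamina. In mouse embryos this timing programme is set up over the first cell divisions. Single-cell Repli-seq reads it from DNA copy number, since a replicated stretch has 1 copy more per chromosome than an unreplicated stretch in the same cell.

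All embryos of the study were of the BDF1 strain, were made by SCNT and were cultured in vitro in CZB medium. What kind of somatic cell gave the nuclei is not stated in the labels. The sole other group is 28 cells at the 4-cell stage, made and cultured in the same way. Single blastomeres were taken out by micromanipulation and their DNA was amplified before sequencing, so each profile is that of 1 cell. Build mm9 is divided into bins of 80 kb, and each bin of a cell is given as replicated, not replicated or without a call.

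The 6 early-S cells came from 4 embryos and the 15 late-S cells from 8, out of 12 embryos at the 8-cell stage. Embryos 3 and 10 had cells of both classes. Values were averaged per embryo, because sister blastomeres are not independent, and an embryo is 1 replicate in every mean ± SD and test below. The 8-cell embryos fell into a pair of title sets, with 2 early-S and 8 late-S cells in set DEP_01_162 and 4 and 7 in set DEP_01_164. Early-S cells had calls in 27713 to 29761 of 30890 autosomal bins and late-S cells in 27235 to 29848. Sequencing depth per cell is unknown here. The authors' noise score was 0.364 to 0.461 in early-S and 0.264 to 0.491 in late-S cells. No cell had the same profile as another.

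The early-S cells had replicated 12.9% and 13.7% (embryo 11), 15.1% (embryo 8), 16.5% and 17.4% (embryo 3) and 26.7% (embryo 10) of their called autosomal bins. The nearest cells outside the class were at 30.1% and 30.2%. In the late-S class the lowest cell was at 71.7%, the median at 86.4% and the highest at 94.8%, and the nearest cells below it were at 69.4% and 68.1%. These values chose the classes and are a description. Blastomeres of an embryo were often far apart in replicated percentage. In 9 of the 11 embryos with at least 2 cells, it spanned over 30 points, and embryo 3 ran from 16.5% to 87.7%. Without the 5 late-S cells that stand apart, described below, embryo 3 ran to 85.4% and embryo 9 from 62.2% to 64.6%. Embryo 10 was then left with its early-S cell alone.

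**Figure D1:**
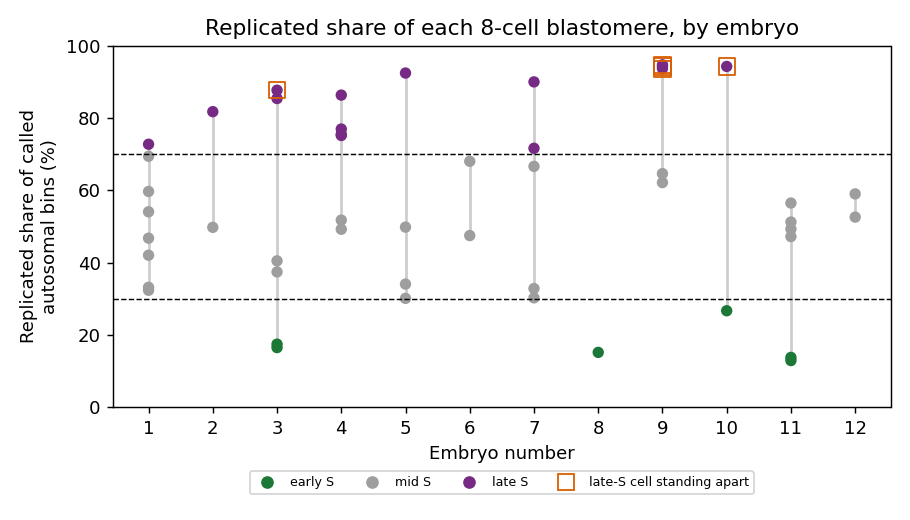
Replicated percentage of called autosomal bins (y axis) of the 49 cells at the 8-cell stage, by embryo (x axis). Each point is a cell, grey lines join the lowest and highest cell of an embryo, dashed lines mark the limits of 30% and 70%, and orange squares mark the 5 late-S cells that stand apart. Embryos 3 and 10 hold cells on both sides.

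Of the late-S cells, 5 stand apart from the rest in the shape of their profiles and are described first, since they touch every late-S result. In 4 of them, 14 to 18 of the 19 autosomes were replicated over at least 98% of called bins, while no other late-S cell had any such autosome. The embryo 9 cell at 94.8% had 98.5% of its unreplicated bins on chromosome 9, which was unreplicated from end to end, and its other autosomes were 99.9% replicated. The embryo 10 cell at 94.3% had 99.4% of its unreplicated bins on chromosome 7, of which 7.36% was replicated. In the other embryo 9 cells, at 93.7% and 94.3%, 96.9% and 86.2% of the unreplicated bins lay on chromosomes 2, 6, 7 and 11.

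The fifth was the embryo 3 cell at 87.7%. Its unreplicated bins were spread over 1949 runs with a median length of 0.08 Mb, which is 1 bin, and 51.5% of these runs were a single bin. In the other 10 late-S cells, which came from 6 embryos, unreplicated runs numbered 296 to 1083 and single-bin runs made up 4.27% to 16.3%. The 5 cells were picked out after their profiles had been seen, by 10 or more autosomes at 98% or by a majority of single-bin runs. Late-S results are therefore given with and without them, and without them no test was made. The class name rests on the replication score alone, and whether these 5 cells were in S phase was not tested. The 5 cells passed the authors' quality flag. Their noise score was 0.375 in the cell at 87.7% and 0.300 to 0.449 in those at 93.7% to 94.8%. In the other late-S cells it ran from 0.264 to 0.491. The most replicated of those others had 0.368 (at 85.4%), 0.327 (86.4%), 0.276 (90.04%) and 0.264 (92.5%). What sets the 5 cells apart was not tested either.

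**Figure D2:**
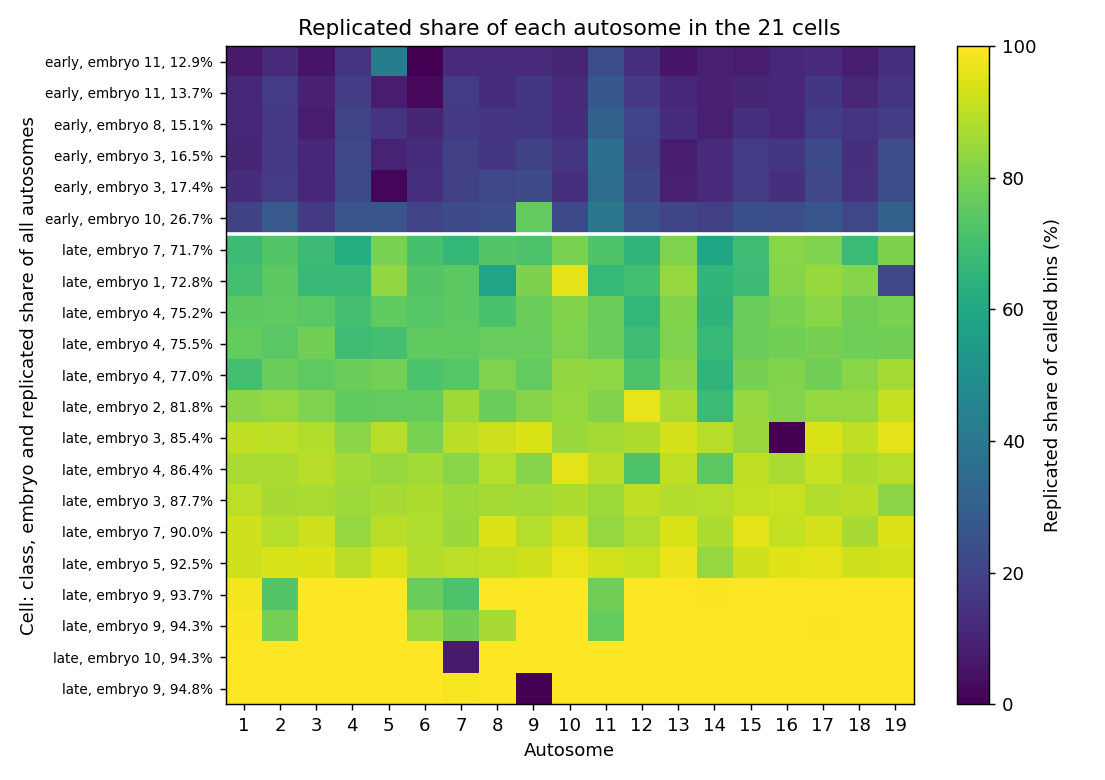
Replicated percentage (colour) of each autosome (x axis) in the 6 early-S and 15 late-S cells (y axis, in order of their total, the white line between the classes). Chromosome 11 is the brightest autosome in 4 of the 6 early-S cells, and the lowest 4 cells of the plot are nearly uniform except on a few autosomes.

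Single autosomes also departed from the rest in cells that do not stand apart. In 5 of the 21 cells an autosome lay at least 40 points from the cell's total. Chromosome 16 was 0.352% replicated in the embryo 3 cell at 85.4%, in an unreplicated run of 87.6 Mb, and the other autosomes of that cell were 88.8% replicated. Chromosome 19 was 21.8% replicated in the embryo 1 cell at 72.8%. Among early-S cells, chromosome 9 was 76.1% replicated in the embryo 10 cell, against 24.02% for its other autosomes. The remaining 2 of the 5 cells are the chromosome 7 and chromosome 9 cells above. Early-S calls were sparse on 2 autosomes: in the embryo 11 cells at 12.9% and 13.7%, 3.59% and 48.9% of chromosome 6 was called, and of chromosome 5 19.2% was called in the embryo 3 cell at 17.4% and 47.9% in the embryo 11 cell at 13.7%.

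Whether cells at both ends of S phase follow a common order was asked with cells that the split did not use. The reference order ranked each bin by the share of 18 mid-S 4-cell cells, from 9 embryos, that had replicated it. Agreement of a cell with this order was the probability that a replicated bin stood earlier in it than an unreplicated bin (the area under the receiver operating curve, AUC), where 0.5 means no order. This value does not depend on how much a cell had replicated, and each member could have reached at least 0.996.

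All 6 early-S cells followed the order. Their AUC was 0.823 and 0.864 in embryo 11, 0.879 in embryo 8, 0.888 and 0.886 in embryo 3 and 0.860 in embryo 10. The mean was 0.867 ± 0.0195 (SD, n = 4 embryos), above 0.5 in 4 of 4 embryos. An exact two-sided sign-flip test gave p = 0.125, which is the smallest that 4 embryos allow. The 28 mid-S cells of the same stage, tested in addition, had a mean of 0.885 ± 0.0232 (n = 10 embryos, exact sign-flip p = 0.00195), and all 28 were above 0.5.

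The late-S cells that stand apart in shape did not overlap the others in AUC over all autosomes. The 10 late-S cells that do not stand apart had an AUC of 0.773 to 0.910, with a median of 0.863, and the 5 others lay at 0.386 (embryo 3), 0.427 (embryo 10) and 0.443, 0.445 and 0.487 (embryo 9). Over all late-S cells the mean was 0.729 ± 0.204 (n = 8 embryos), above 0.5 in 6 of 8 embryos, with exact sign-flip p = 0.0391. That call was lost when any of embryos 1, 2, 3, 4, 5 or 7 was left out, with exact p between 0.0625 and 0.0781 and means from 0.703 to 0.750. It held without embryo 9 (mean 0.767) or embryo 10 (mean 0.772), with exact p = 0.0312 each. Without the 5 cells the mean was 0.856 ± 0.0460 (n = 6 embryos).

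Late-S minus early-S mean AUC was -0.139, a difference that did not pass an exact two-sided permutation test over embryos (p = 0.269), and -0.0115 without the 5 cells. Within the title sets the difference was -0.0883 in DEP_01_162, with a single early-S embryo, and -0.203 in DEP_01_164 (exact permutation p = 0.371). Leaving out the far-off autosome moved the values of the 5 cells that have one. Without chromosome 16 the AUC of the embryo 3 cell at 85.4% went from 0.773 to 0.866, and without chromosome 9 that of the early-S cell of embryo 10 went from 0.860 to 0.888. Without chromosome 19 the embryo 1 cell at 72.8% went from 0.859 to 0.879. Of the cells that stand apart, the embryo 9 cell at 94.8% went from 0.443 to 0.798 without chromosome 9, which is within the range of the 10 others but rests on 23 remaining unreplicated bins. The embryo 10 cell at 94.3% went from 0.427 to 0.213 without chromosome 7, on 10 remaining unreplicated bins. At the 4-cell stage itself, the 9 cells over 70% had a median AUC of 0.522 (0.398 to 0.876) and the single cell under 30% had 0.446.

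**Figure D3:**
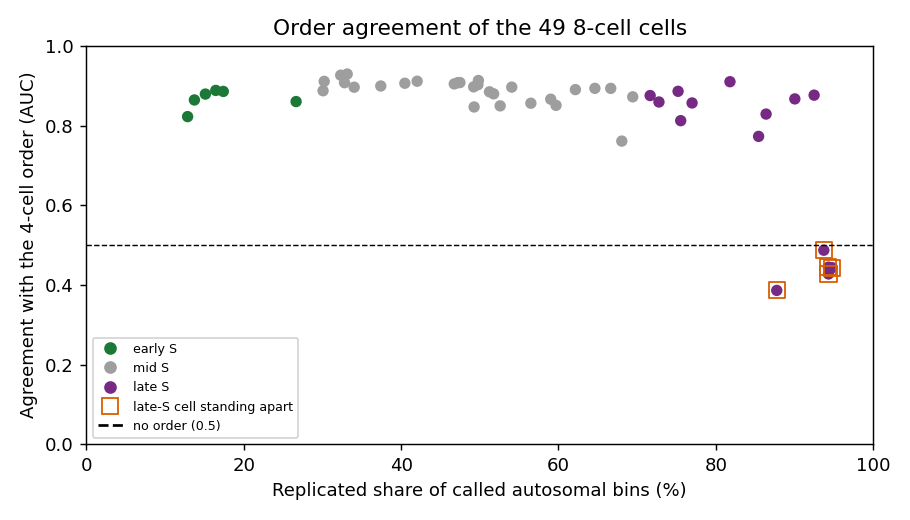
Agreement with the 4-cell order (AUC, y axis) against the replicated percentage of called autosomal bins (x axis) of the 49 cells at the 8-cell stage, 1 point per cell, coloured by class. All 6 early-S, all 28 mid-S and 10 late-S cells lie above the dashed line at 0.5, and the 5 squared late-S cells lie below it.

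The order shows where in it replication had started and where it was still missing. Bins were grouped by the percentage of mid-S 4-cell cells that had replicated them, in bands of 10 points. In the band of 90 to 100%, which holds 16.0% of the bins, early-S cells had replicated 37.9% at the lowest, 49.8% at the median and 69.98% at the highest (mean 52.5% ± 12.7, n = 4 embryos). In the band of 0 to 10% they had replicated 1.03% ± 0.992. The top 2 bands together held 47.1% and 35.4% of everything that early-S cells had replicated. Early-S replication was thus concentrated in the earliest bins without filling them, and the remainder of those bins was still unreplicated.

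Without the 5 cells, late-S cells lacked the latest bins. The 10 others had replicated 98.1% ± 2.66 (n = 6 embryos) of the 90 to 100% band and 43.9% ± 14.6 of the 0 to 10% band. Of their unreplicated bins, 26.1% and 35.05% lay in the lowest 2 bands, which hold 7.80% and 13.3% of the bins. The 5 cells had no such slope. They had replicated 94.0% ± 1.34 of the 0 to 10% band and 88.3% ± 6.08 of the 90 to 100% band (n = 3 embryos). With all 15 cells the bands stood at 59.3% ± 26.8 and 95.8% ± 4.93 (n = 8 embryos).

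**Figure D4:**
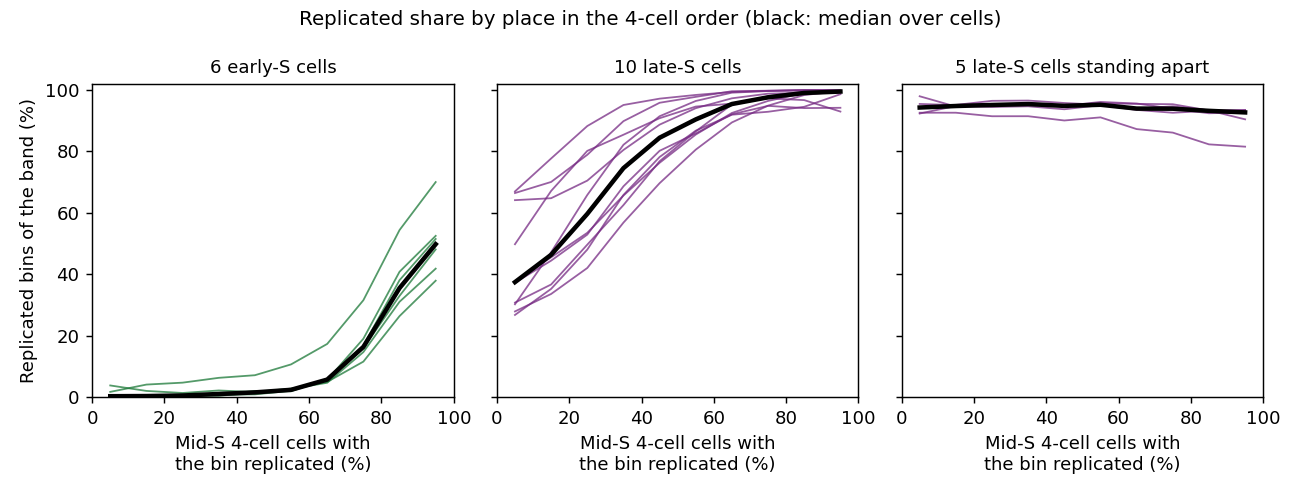
Replicated percentage of bins (y axis) in 10 bands of the 4-cell order (x axis, percentage of mid-S 4-cell cells that had replicated the bin) for early-S cells, late-S cells and the 5 late-S cells that stand apart. Thin lines are cells and the black line is their median, which in early S climbs to 49.8%, in the 10 late-S cells starts at 37.4%, and in the 5 cells stays between 92.6% and 95.3%.

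If cells pass through 1 order, all that an early-S cell has replicated should already be replicated in any late-S cell. This was measured between pairs of cells of different embryos by Loevinger's H, which is 1 when no bin breaks the order and 0 when the number of breaking bins is that expected from both totals alone. Pairs share cells, so the values are a description. Over the 58 pairs with the 10 late-S cells, H was 0.847 ± 0.112 (mean and SD over 23 embryo pairs), with a lowest value of 0.503 and a highest of 0.996. At the median pair 1.18% of the bins replicated in the early-S cell were unreplicated in the late-S cell, where 22.7% were expected. All 58 pairs were above 0. Within a class, where the totals of a pair lie closer together, H between cells of different embryos was lower. Its median was 0.678 in early S (0.551 to 0.812, 13 pairs) and 0.527 among the 10 late-S cells (0.258 to 0.776, 38 pairs). Over all late-S cells it was 0.0464 (-0.135 to 0.776, 94 pairs).

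With the 5 cells, H had a mean of -0.382 over 27 pairs and was above 0 in 6 of them. Over all 85 pairs the mean was 0.521 and the median 0.812. The lowest value, -1.89, paired the early-S cell of embryo 10 with the embryo 9 cell at 94.8%, which hold the largely replicated and the unreplicated chromosome 9. The embryo 3 cell at 87.7% was low against every early-S cell, from -0.777 to -0.471, including those of its own embryo. Among the other late-S cells the lowest medians were 0.636 for the embryo 3 cell with the unreplicated chromosome 16 and 0.710 for the embryo 4 cell at 75.5%, while 7 of the 10 had medians above 0.92.

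**Figure D5:**
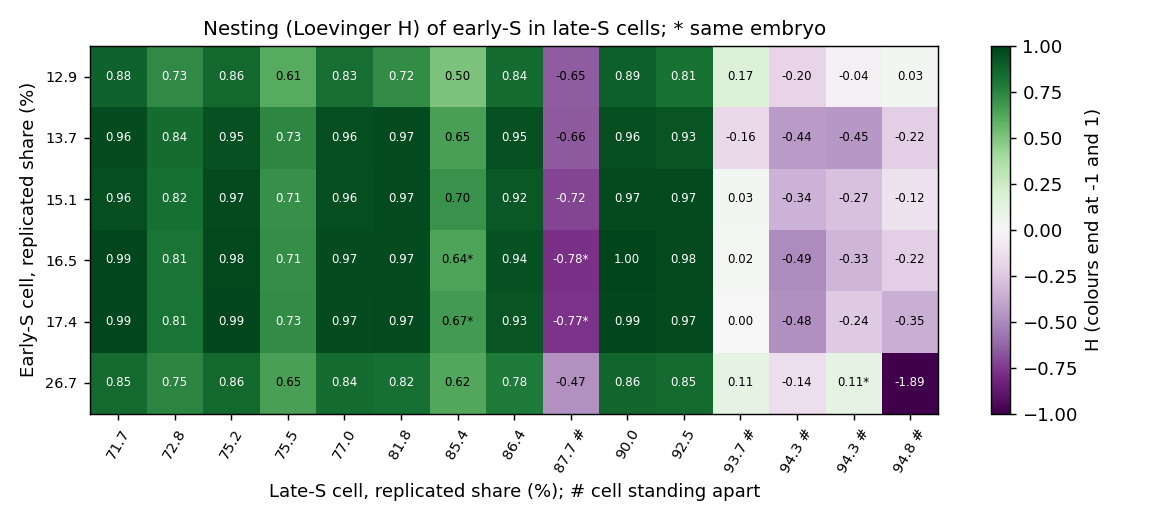
Loevinger's H for each pair of an early-S cell (y axis) and a late-S cell (x axis), both named by their replicated percentage. H is printed in each cell and coloured from -1 to 1, # marks late-S cells that stand apart and * pairs of the same embryo. The columns without # are green from 0.50 to 1.00, and those with # are near or below 0.

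Within a class the cells shared much and not all of their pattern. Pairs of early-S cells of different embryos shared a median of 73.5% (62.1% to 86.3%, 13 pairs) of the replicated bins of the cell with fewer, and 51.9% of those of the cell with more, where the larger set covered 17.7% of bins at the median. The highest shares of the smaller set, from 80.7% to 86.3%, were those of pairs with the cell at 26.7%. Of the sister cells, the pair in embryo 11 shared 68.8% of the smaller and 54.5% of the larger set, and the pair in embryo 3 shared 73.4% and 72.4%. For the 10 late-S cells, pairs of different embryos shared a median of 65.4% (36.6% to 84.0%, 38 pairs) of the smaller set of unreplicated bins and 33.99% of the larger set. There the larger set covered 24.7% of bins at the median. The 7 pairs of sister cells shared 61.1% to 87.4% of the smaller set, with the larger set again at 24.7% of bins at the median. Pairs share cells and were not tested.

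The overlap of all early-S cells gives a core of first-replicated bins. Of 26125 autosomal bins called in all 6 early-S cells, 1349 were replicated in every one and 17019 in none. Of the 1237 core bins that were also called in the 10 late-S cells, 1048 (84.7%) were replicated in all 10, as were 11693 (46.8%) of all 24999 bins called in these cells of both classes. Most of the exceptions came from 3 cells: 81 core bins were unreplicated in the embryo 4 cell at 75.5%, 68 in the embryo 3 cell at 85.4%, of which 50 lay on chromosome 16, and 50 in the embryo 1 cell at 72.8%. In 3 of the 10 cells no core bin was unreplicated. Of the 5 cells that stand apart, 4 had a higher unreplicated share among core bins than among all their bins. It was 23.3% against 12.3% in the embryo 3 cell at 87.7%, 11.03% (46 of 417 called, all 46 on chromosome 7) against 5.68% in embryo 10, and 7.84% against 5.69% and 6.48% against 5.21% in the embryo 9 cells at 94.3% and 94.8%. The embryo 9 cell at 93.7% had 5.49% against 6.28%.

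At the other end the core was taken over 10 cells instead of 6. Those at 90.04% and 92.5% had 9.96% and 7.51% of their bins unreplicated, so the sizes of the cores cannot be compared. Of 28433 bins called in the 10 late-S cells, 242 were unreplicated in all 10, and 233 of these were also unreplicated in every early-S cell with a call. Most bins share that early-S state: of all 26125 bins called in all early-S cells, 17019 were unreplicated in every one. With the 5 cells included, 0 of 25948 bins were unreplicated in all 15 late-S cells.

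To name regions, autosomes were divided into 1-Mb windows, each of which needed 6 or more called bins in a cell. The 12 windows with the highest early-S mean were taken as the first regions, and the 12 with the lowest late-S mean as the last, so the values that chose them carry no test. A window was counted where at least 5 of the 6 early-S or 12 of the 15 late-S cells had a value. In early S, 72 of 2237 windows (3.22%) had a mean of at least 80%. The median window was at 7.29%, and 736 windows (32.9%) were at 0% in every early-S cell with a value. An annotation of build mm9 was not used here, so no gene is named for a region.

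A pair of windows was replicated to 100% in all 6 early-S cells, chr4:132000001-133000000 and chr11:75000001-76000000. The first of these was also at 100% in every late-S cell with a value. The second was at 100% in the 10 late-S cells, and the lowest of the 5 others was at 25%. Next came chr18:35000001-36000000, where 5 early-S cells were at 100% and the embryo 3 cell at 17.4% was at 91.7% (mean 99.0% ± 2.08, n = 4 embryos). In chr19:46000001-47000000, 5 early-S cells were at 100% and the embryo 10 cell at 92.3%. In the late-S cell of embryo 1 that same window was unreplicated, in the cell whose chromosome 19 was 21.8% replicated.

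Chromosome 11 also held chr11:78000001-79000000, at 98.1% ± 3.85 in early S, and chr11:100000001-101000000, at 96.2% ± 3.14. Chromosome 4 held chr4:108000001-109000000 at 97.1% ± 3.68 and chr4:155000001-156000000 at 96.4% ± 7.14. These 2 chromosomes gave 3 of the 12 first regions each. The others were chr9:21000001-22000000 and chr2:167000001-168000000, both at 96.9% ± 6.25, and chr3:88000001-89000000 and chr7:134000001-135000000, both at 96.2% ± 7.69. In each of the last 4, the lowest early-S cell was at 75% or 84.6%, so no first region was below 75% in any early-S cell.

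Cells outside the early-S class had the first regions replicated too. In mid-S 8-cell cells the 12 windows had means of 91.5% to 99.2%, where the median of all windows was 49.2%. In mid-S 4-cell cells they had means of 77.4% to 100%, against 56.0%. Of the wider list of 72 windows, 72 were at 80% or more in mid-S 8-cell cells and 69 in mid-S 4-cell cells, beside 552 and 605 of all 2232 windows measured in both classes. In the 10 late-S cells 7 of the 12 were at 100% in every cell, as were 419 of all 2377 windows (17.6%).

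The list of 72 was spread unevenly. Chromosome 11 held 14 of its 119 windows in the list (11.8%), and chromosomes 12 and 19 held 5.22% and 5.17% of theirs. Chromosome 14 held 0 of 116. Chromosomes 5 and 6 held none either, but there only 73 and 78 windows had values in enough early-S cells.

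The last regions depend on the 5 cells. With all 15 late-S cells, 1 of 2376 windows (0.0421%) had a mean of 20% or less. That count was 0 when embryo 1, 2, 4, 5 or 7 was left out, 4 without embryo 3 and 5 without embryo 9. Without the 5 cells it was 38 of 2377 (1.6%). The window is chr7:102000001-103000000, at 19.6% ± 34.9 (n = 8 embryos), and 1.92% ± 3.22 (n = 6) without the 5 cells. In 8 of the 10 late-S cells no bin of it was replicated, and the cells at 90.04% and 92.5% were both at 7.69%. It was unreplicated in all 6 early-S cells and averaged 1.54% in mid-S 8-cell cells.

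Over all 15 cells, 6 of the 12 last windows lay on chromosome 7, in the stretches chr7:101000001-103000000 and chr7:76000001-80000000. The embryo 10 cell in which 7.36% of chromosome 7 was replicated enters this list. Without the 5 cells, 1 of the 12 lay on chromosome 7, and 6 windows were common to both lists. Besides the window on chromosome 7 these are chr14:117000001-118000000, chr4:64000001-65000000, chr11:38000001-39000000, chr8:105000001-106000000 and chr6:105000001-106000000. The remaining window of the list over all cells was chr9:33000001-34000000, at 33.9% ± 42.5.

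Without the 5 cells, chr14:117000001-118000000 was at 2.78% ± 4.30: 8 of the 10 late-S cells had replicated none of it, and the embryo 3 cell at 85.4% and the embryo 5 cell at 92.5% were at 8.33%. The chromosome 4 window was at 4.17% ± 7.14, with 7 of 10 cells at 0 and the highest at 38.5%. Chromosome 4 held 3 more of this list, chr4:91000001-92000000 at 5.56% ± 13.6, chr4:68000001-69000000 at 9.29% and chr4:30000001-31000000 at 10.3%. In chr4:91000001-92000000 the embryo 4 cell at 86.4% was fully replicated while its sister cells at 75.2% and 76.98% had replicated none. The stretch chr6:104000001-106000000 was at 8.28% on average, and 9 of 10 cells were at 0 in its distal window. Also in this list were chr6:80000001-81000000 at 8.97% and chr1:41000001-42000000 at 8.33%.

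All 12 windows of the list without the 5 cells were at 0% in every early-S cell with a value, as were 32.9% of all windows. In mid-S 8-cell cells they averaged 0 to 5.51%, and in mid-S 4-cell cells 0 to 11.3%. The 38 windows at 20% or less were all at 20% or less in mid-S 8-cell cells, and 37 of them in mid-S 4-cell cells, beside 534 and 358 of the 2232 windows. Of the 38, chromosome 6 held 6 (4.11% of its 146 windows), chromosome 4 held 5 (3.38% of 148) and chromosome 7 held 5 (3.62% of 138). Chromosome 11 held 4 (3.36% of 119), where the share over all windows was 1.6%. Chromosomes 10, 13, 17, 18 and 19 held 0 of 127, 116, 92, 88 and 58 windows, counts at which few would be found at that share.

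Few windows ran against the split. In 1130 of 2232 windows (50.6%) every late-S cell was above every early-S cell, and in 1379 (61.8%) without the 5 cells, which is a description since the split used these totals. The early-S mean was above the late-S mean in 11 windows (0.493%), and in 8 (0.358%) without the 5 cells. Of these 8, the 3 on chromosome 16 had their lowest late-S value of 0% in the embryo 3 cell with the unreplicated chromosome 16. In chr11:53000001-54000000 and chr19:46000001-47000000 the embryo 1 cell was the one at 0%. The window chr9:33000001-34000000 was at 25% in early S, from the embryo 10 cell alone, which was at 100% there, and at 14.6% in the 10 late-S cells.

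Per chromosome, the replicated percentage was set against the cell's own autosomal total, which the split does not fix. Chromosome 11, a gene-rich mouse chromosome, was ahead in each early-S cell. It was 24.2% and 27.7% replicated in the embryo 11 cells, 30.6% in the embryo 8 cell, 37.0% and 35.3% in the embryo 3 cells and 39.8% in the embryo 10 cell. This was 15.1 ± 2.98 points above the autosomal total (n = 4 embryos, 4 of 4 above 0). Chromosome 9 was 13.9 ± 23.8 points above, but 2.01 without embryo 10. Chromosomes 19 and 17 were 3.81 ± 2.43 and 2.32 ± 2.27 points above in 4 of 4 embryos.

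Behind the total in all 4 embryos were 7 chromosomes: 3 (-7.11 ± 1.86 points), 6 (-6.73 ± 3.86), 14 (-5.73 ± 1.66), 13 (-5.30 ± 2.61), 1 (-5.15 ± 1.504), 10 (-2.64 ± 1.03) and 16 (-2.53 ± 0.899). Without embryo 11, where its calls were sparse, chromosome 6 was at -4.88 points. The total of embryo 10 includes its largely replicated chromosome 9. In that embryo chromosome 16 was 24.03% replicated, level with the 24.02% of the autosomes other than chromosome 9. With 4 embryos the exact sign-flip test cannot go below 0.125, and it was not made for these values.

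In late S no autosome passed an exact sign-flip test after Benjamini-Hochberg adjustment over the 19 autosomes (0 of 19, 0%), and 3 had an unadjusted p under 0.05. Chromosome 13 was 6.16 ± 2.17 points above the total and chromosome 17 was 5.55 ± 2.85 points above, each in 8 of 8 embryos (exact sign-flip p = 0.00781, adjusted 0.0742). Chromosome 10 was 6.70 ± 7.05 points above in 7 of 8 embryos (exact p = 0.0156, adjusted 0.0990), but 4.34 points above without embryo 1, 3.98 with the limits 25 and 75 and 1.56 with the limits 35 and 65. Chromosomes 13, 17 and 10 were 6.95 ± 2.47, 6.19 ± 3.63 and 7.02 ± 8.33 points above the total without the 5 cells, in 6, 6 and 5 of 6 embryos. In embryos 9 and 10 chromosome 13 was at 99.8% or 100% and could not have been further ahead. The late-S cells of these embryos had 14 to 18 of the 19 autosomes replicated over at least 98%. Being ahead there was thus not particular to chromosomes 13, 17 and 10: chromosome 3, for example, was 5.73 and 5.68 points above the total. Chromosomes 13 and 10 were behind the total in 4 of 4 early-S embryos and ahead of it in 8 and 7 of 8 late-S embryos, embryos 9 and 10 among them. The differences between the classes were not tested.

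Chromosome 7 was at -12.6 ± 30.4 points from the total in late S, with embryo 10 at -87.0, but 0.161 points above it without the 5 cells and -1.93 points without embryo 10. Without the 5 cells, chromosome 14 was at -7.17 ± 5.98 points from the total, below it in 5 of 6 embryos, and chromosome 4 at -4.64 ± 2.14, below it in 6 of 6. With all cells they were at -4.19 ± 7.53 and -2.09 ± 5.03.

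Mouse autosomes have their centromere at the proximal end, so the ends of a chromosome differ in nature. In early S the outermost 10 Mb of the proximal ends were at -2.06 ± 0.884 points from the autosomal total (0 of 4 embryos above 0) and the distal ends 3.32 ± 2.53 points above it (4 of 4), each at the smallest exact sign-flip p for 4 embryos, 0.125. The sign of the proximal value turned with the size of the end: the outermost 5 Mb were 1.53 points above the total. In late S the proximal ends were 2.31 ± 2.40 points above the total in 7 of 8 embryos, with embryo 4 at -1.44 (exact sign-flip p = 0.0234, not adjusted). Embryos 9 and 10, whose late-S cells all stand apart with 14 to 18 autosomes almost fully replicated, gave 1.57 and 1.75 points of this. The distal ends were 2.33 ± 3.04 points above in 5 of 8 embryos, which did not pass the test (exact p = 0.0938). The proximal ends were 2.61 ± 2.80 and the distal ends 3.46 ± 2.58 points above without the 5 cells, each in 5 of 6 embryos.

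The stretches that carry the minority state, replicated in early S and unreplicated in late S, had median lengths under 1 Mb in all embryos except embryo 10 in late S. Runs were taken along called bins, across bins without a call. Replicated runs of early-S cells had a median length of 0.24 Mb in embryo 11, 0.32 Mb in embryos 3 and 8 and 0.40 Mb in embryo 10 (mean 0.320 ± 0.0653, n = 4). The longest replicated run in an early-S cell was 2.64 to 4.96 Mb. Unreplicated runs of late-S cells had an embryo mean of 2.56 ± 5.88 Mb (n = 8), in which embryo 10 gave 17.1 Mb and the others 0.24 to 0.667 Mb. The difference of 2.24 Mb did not pass an exact permutation test over embryos (p = 0.362). It was 0.190 Mb without embryo 10 (exact permutation p = 0.075) and 0.160 Mb without the 5 cells, when the late-S mean was 0.480 ± 0.0980 Mb (n = 6).

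Domains were also drawn from the 4-cell order, as runs of bins replicated in the majority or the minority of mid-S 4-cell cells. In early-S cells 11.7% ± 8.75 of early domains under 1 Mb was replicated, 25.9% ± 10.3 of those of 1 to 3 Mb and 39.5% ± 9.13 of those over 3 Mb (n = 4 embryos, over 390, 278 and 115 domains). In the longer early domains the central part was 14.4 ± 1.75 points more replicated than the outer parts, with 12.6 to 16.4 points in the 4 embryos. In the 10 late-S cells 21.4% ± 12.9, 36.4% ± 13.3 and 41.4% ± 13.9 of late domains of the same sizes was still unreplicated (n = 6 embryos), and the central part was 5.55 ± 4.23 points more often unreplicated than the outer parts. With all 15 cells that last value was 3.83 ± 4.48 (n = 8). The reference cells themselves had replicated 64.05%, 79.1% and 84.8% of the early domains of rising size. Of the late domains they had replicated 34.6%, 23.9% and 16.95%. In the longer early domains they had replicated 86.8% of the central and 81.25% of the outer parts. In the longer late domains these values were 15.48% and 21.51%. The domains were drawn from these same cells, and the part of this in the early-S and late-S values was not tested.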

How the data were processed

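The data are single-cell Repli-seq profiles of 77 blastomeres. The authors deposited 1 binary state per 80-kb bin and cell (1, -1 or 0); per the submitters' processing notes these refer to mm9, and no aligner or segmentation is named there. A state of 1 stands for a replicated bin, -1 for an unreplicated bin and 0 for a missing call, as follows from the deposited replication score, which for every cell is the percentage of 1 in its called autosomal bins. The authors give this replication score as a percent. The authors' noise score has no unit. Profile columns that matched no sample numbered 0.

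Early and late S were defined by the replication score, under 30 and over 70. Chromosome X was left out. All values were averaged per embryo, as the deposited annotation names it. AUC minus 0.5, chromosome values and chromosome ends were tested by exact two-sided sign-flip tests over embryos, and differences between the classes by exact permutation of class labels over embryo means, in which embryos 3 and 10 give a value to each class. Where nothing else is said, ± is the SD over embryos. The p-values set a mean or a difference against the spread between these embryos. The p-values of chromosomes were adjusted over 19 autosomes, and those of chromosome ends were not adjusted. Regions, nesting, pairs of cells and domains were described without a test. The rule for named regions was the 12 windows of 1 Mb with the highest early-S and the 12 with the lowest late-S mean, with adjacent windows merged. Central parts of domains were compared with outer parts in domains of at least 2 Mb.

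Alternatives were the limits 25 and 75 or 35 and 65, an order from mid-S 8-cell cells of other embryos, other window and end sizes, bins called in all 77 cells, cells weighted equally, leaving out cells with a single-state autosome, each embryo or each title set, and mean runs or runs of at least 2 bins. The results without the 5 late-S cells that stand apart, the mid-S test, the shares of pairs, the domains and the values without a far-off autosome were added after the profiles had been seen. The members and lists were chosen with earlier results of these data known. The statistics were tested on simulated data. Calculations were run in Python 3.11.15 with scipy 1.17.1, numpy 2.4.6 and pandas 2.3.3, and plots were drawn with matplotlib 3.10.9.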

Additional observations from a re-analysis of the deposited data

Results flagged for a closer look

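In 47 sets of embryo values, a single embryo far from the others was looked for by the gap to its neighbour relative to the range. Of these, 11 had one, where chance gives about 1 in 20. In early S, embryo 10 was far from the 3 others on chromosome 9, at 49.4 points above its autosomal total where the next embryo was at 4.33, and on chromosome 7, at -3.84 points where the next was at 1.23. Both flags come from 1 cell, whose total includes chromosome 9. Chromosome 7 was 22.8% replicated there, against 24.02% for the autosomes other than chromosome 9.

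In late S, embryo 1 was far on 4 chromosomes: 23.2 points above the total on chromosome 10, 11.3 on chromosome 13, 11.8 on chromosome 17 and -51.0 on chromosome 19. Embryo 3 was at -40.5 points on chromosome 16, where 1 of its 2 late-S cells had almost no replicated bin. Embryo 9 was at -10.1 points on chromosome 2 and -27.6 on chromosome 9. Embryo 10 was at -87.0 points on chromosome 7, and its median unreplicated run of 17.1 Mb was far above the next embryo's 0.667 Mb. Each of these late-S values rests on 1 to 3 cells, and the flags of an embryo on several chromosomes come from the same cells.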

How the results depend on the processing

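The late-S agreement with the order stayed above 0.5 but lost its call with the limits 25 and 75 (AUC 0.709), in windows of 1 Mb (0.727), in the title sets alone (0.799 in DEP_01_162 and 0.658 in DEP_01_164), without cells holding a single-state autosome (0.705) and without embryo 1, 2, 3, 4, 5 or 7 (0.703 to 0.750). It held without embryo 9 or 10, so that leaving out single embryos gave 0.703 to 0.772. With the limits 35 and 65, early S passed its test (AUC 0.886, 7 embryos, exact p = 0.0156), as did its proximal (-2.54 points) and distal (5.21 points) chromosome ends, and 2 autosomes, 13 and 17, passed in late S. The early-S proximal ends were at 1.53 points with ends of 5 Mb. Windows at 80% or more in early S numbered 126 with the limits 35 and 65 and 238 of 0.5 Mb, and 59 to 105 without single embryos. All 12 named first regions were among them with the limits 35 and 65 and with the smaller windows. Windows at 20% or less in late S numbered 0 with the limits 25 and 75, without single-state autosomes or with cells weighted equally, 3 of 0.5 Mb, 0 to 5 without single embryos and 38 without the 5 cells that stand apart. Chromosome 10 in late S went from 6.70 to 1.56 points with the limits 35 and 65. Apart from these proximal ends and chromosome 7 in late S (0.161 points without the 5 cells), no direction of a class mean named above turned under the alternatives run. Single cells that stand apart did cross an AUC of 0.5. The embryo 9 cell at 94.8% was at 0.798 without chromosome 9, and at 0.506 against the order of mid-S 8-cell cells of other embryos. Against that order the embryo 9 cell at 93.7% was at 0.504 and the embryo 10 cell at 94.3% was at 0.501. As a replicate block, the pairing of classes within embryos 3 and 10 gave a late minus early AUC of -0.370 (exact sign-flip p = 0.5, the smallest for 2 pairs). The late-S cells of these embryos all stand apart except the embryo 3 cell at 85.4%. Its AUC was 0.773, against an early-S mean of 0.887 in that embryo. The causes of these changes were not tested beyond the smaller or larger number of embryos and windows. Depth per cell is unknown here, and 4 early-S embryos limit every early-S test.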
